A study of Mus musculus with 4 samples.

Results

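The genes described here are the nuclear genes of oxidative phosphorylation, taken by name as every gene of the files whose symbol starts with Nduf, Uqcr, Cox4, Cox5, Cox6, Cox7, Cox8, Atp5 or Sdh. They were 98 of 32285 genes. Complex I held 38 of them, complex II 4, complex III 8, complex IV 19 and complex V 17, and 12 were assembly factors of complexes I and II. Ndufa4 was counted with complex IV, of which its protein is now known to be a subunit. All 98 had a position on the mouse genome (GRCm38, GENCODE annotation), and 3 of them lay on the X chromosome: Ndufa1, Ndufb11 and Cox7b. Unlike the mitochondrially encoded genes, whose symbols start with mt-, these genes are transcribed in the nucleus and their proteins are imported.

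Oxidative phosphorylation takes place in the inner mitochondrial membrane. Complexes I and II pass electrons from NADH and succinate to ubiquinone, complex III passes them on to cytochrome c, and complex IV passes them to oxygen, while complexes I, III and IV pump protons whose return through complex V makes ATP. Complexes I, III, IV and V hold subunits from both genomes, whereas complex II is made wholly from nuclear genes. Blood stem cells are known for a low reliance on this pathway and a comparatively high reliance on glycolysis, and the pathway gains weight as progenitors mature.

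Single bone marrow cells of transplanted mice were profiled 10 weeks after transplantation with a droplet kit that captures the 5′ ends of transcripts. There were 4 libraries, 1 per group, all of cells carrying CD45.2, the antigen that separates donor from recipient blood in many transplants. Cells positive for Kit, a receptor of stem and progenitor cells, came from a control group, a group with Mll3 and Mll4 deleted (deleted below) and a group called Mll3/4SI (SI below), and cells with low B220, a B-lineage antigen, came from a control group. MLL3 and MLL4 are histone methyltransferases that act at enhancers. The labels do not expand SI, and they do not give the number or sex of the mice, the strain, the alleles or the Cre driver of the deletion. Since each group was 1 library, no difference could be tested, and every interval below is a 95% interval for counting error only. Genotype, animal and library cannot be told apart. In comparisons of the deleted library sex cannot be told apart either, because Y-linked transcripts stood at 149 CPM (counts per 1000000 UMIs) in it and at 0.515 CPM or less in the other 3. Kmt2c and Kmt2d, the genes of MLL3 and MLL4, were still counted in deleted Hlf cells, at 60.1 and 12.2 CPM against 79.2 and 23.1 CPM in control and 73.7 and 19.4 CPM in SI. Counts of 5′ ends outside a deleted part check nothing about the deletion.

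The libraries held 12205 barcodes for control Kit+, 15091 for deleted, 12345 for SI and 16861 for control B220lo, with 85445426 to 166327773 UMIs (unique molecular identifiers, 1 for each captured molecule). Median depth was 11964, 6761, 12148 and 3272 UMIs per barcode in the same order. Any pair of libraries shared 214 to 345 barcode sequences, at most 2.34% of the smaller library. Cells were grouped by the UMIs of 1 gene each, with at least 1 of Hlf (a factor of stem and early progenitor cells), 10 of Elane (neutrophil elastase), 10 of Car1 (a carbonic anhydrase of erythroid progenitors), 3 of Fcer1a (the IgE receptor of mast cells and basophils) or 3 of Cd79a (the signalling chain of the B-cell receptor). These groups are called by those genes. Cells that met more than 1 threshold were left out, which removed 1491 control Kit+ cells, 305 deleted, 1746 SI and 61 control B220lo cells. In Hlf cells all 12 genes of a stem and progenitor list, which includes Hlf itself, were detected in each Kit+ library. They summed to 1690 CPM in control, 1582 in deleted and 1638 in SI. Detection of Hlf is fixed by the rule, and detection alone does not set these cells apart. In control Car1 cells 11 of the 12 were detected at a sum of 276 CPM, with Hlf left out by the rule. Libraries were compared where both had at least 50 cells of a group, so Fcer1a cells of the deleted library, of which there were 3, and Cd79a cells of the control and SI Kit+ libraries, 39 and 25, were not compared.

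Promoters of 6 members are printed as examples. Ndufs5, Atp5k, Ndufa3 and Cox6b2 were each called higher in every comparison of the deleted library, the SI library or both with control Kit+. The share of all genes so called was not counted, so this is only the reason for their choice. Ndufs5, Atp5k and Ndufa3 were also higher in control B220lo than in control Kit+ Elane cells. Cox7a2l was below control in every cell group of SI that was compared. Cox6b1 is the general form of the subunit whose tissue-restricted form is Cox6b2. Each promoter is the 250 bases before the RefSeq start site on GRCm38.p6, 5′ to 3′ on the gene's own strand. Capitals mark letters of the NRF1-type motif GCGCNTGCG or the ETS-type motif CCGGAAG, searched on both strands, and NRF1 and the ETS factor GABP are textbook regulators of respiratory chain genes.
Ndufs5, minus strand, chr4:123718187-123718436: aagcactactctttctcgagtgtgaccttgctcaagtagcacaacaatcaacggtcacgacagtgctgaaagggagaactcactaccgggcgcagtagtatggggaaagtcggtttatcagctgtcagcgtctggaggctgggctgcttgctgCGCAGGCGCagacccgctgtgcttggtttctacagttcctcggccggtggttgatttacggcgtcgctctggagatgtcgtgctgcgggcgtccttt
Atp5k, minus strand, chr5:108434400-108434649: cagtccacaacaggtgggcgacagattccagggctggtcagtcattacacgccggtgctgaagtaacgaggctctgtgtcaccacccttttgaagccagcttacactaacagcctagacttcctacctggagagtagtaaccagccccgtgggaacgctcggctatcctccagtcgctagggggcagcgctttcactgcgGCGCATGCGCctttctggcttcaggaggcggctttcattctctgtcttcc
Ndufa3, plus strand, chr7:3617123-3617372: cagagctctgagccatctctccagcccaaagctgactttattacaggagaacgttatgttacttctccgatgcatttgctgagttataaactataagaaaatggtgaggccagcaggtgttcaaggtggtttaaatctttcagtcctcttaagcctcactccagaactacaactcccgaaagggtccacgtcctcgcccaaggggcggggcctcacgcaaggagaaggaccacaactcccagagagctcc
Cox7a2l, minus strand, chr17:83514334-83514583: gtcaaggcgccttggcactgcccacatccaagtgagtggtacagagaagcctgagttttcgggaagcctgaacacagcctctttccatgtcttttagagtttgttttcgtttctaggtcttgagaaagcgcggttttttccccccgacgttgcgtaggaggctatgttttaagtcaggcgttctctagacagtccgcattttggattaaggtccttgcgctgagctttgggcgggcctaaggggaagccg
Cox6b2, minus strand, chr7:4753095-4753344: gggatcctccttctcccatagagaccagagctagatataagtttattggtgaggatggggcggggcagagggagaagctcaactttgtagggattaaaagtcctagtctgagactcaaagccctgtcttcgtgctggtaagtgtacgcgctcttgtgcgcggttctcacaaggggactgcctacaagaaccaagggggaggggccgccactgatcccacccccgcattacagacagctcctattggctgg
Cox6b1, minus strand, chr7:30626115-30626364: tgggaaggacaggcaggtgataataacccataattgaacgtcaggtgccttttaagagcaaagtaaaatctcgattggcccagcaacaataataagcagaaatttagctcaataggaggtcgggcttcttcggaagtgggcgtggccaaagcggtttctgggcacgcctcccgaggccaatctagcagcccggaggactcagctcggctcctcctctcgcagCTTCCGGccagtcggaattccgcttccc

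The Ndufs5 window held 1 match to the NRF1-type motif and the Atp5k window 2 that overlap in 1 run of capitals, while the Cox6b1 window held 1 match to the ETS-type motif. The windows of Ndufa3, Cox7a2l and Cox6b2 held neither. The RefSeq starts of Ndufs5, Atp5k, Cox6b1 and Cox7a2l lie inside the spans that GENCODE gives these genes, so other starts may be used. Of the 98 members, 79 had a promoter in the RefSeq table. The NRF1-type motif was in 17 of them, 21.5%, against 5.40% of 27025 promoters of the same length, and the ETS-type motif was in 15, 19%, against 7.05%. The letters CCAAT, a general promoter element, were in 35 of them, 44.3%, against 34.5%. At least 1 of the NRF1-type and ETS-type motifs was in 28 members and neither was in 51. A match is a description of letters and not a bound site.

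Levels of single genes are given as CPM, the UMIs of a gene per 1000000 UMIs of the cell group. A molecule gives 1 UMI whatever its length, so levels were not divided by length. Over the 5 cell groups of the control Kit+ library the median member stood at 219 CPM. Of the 98 members, 79 reached 50 CPM and 14 reached 500 CPM, while 5 were under 1 CPM, 1 of them with no UMI. The top 10 members made up 31.1% of the summed level and the top 20 made up 49.7%.

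In complex I, which oxidises NADH, the highest 2 members were Ndufb9 at 353 CPM and Ndufb8 at 328 CPM, both accessory subunits of the membrane arm. Complex II, succinate dehydrogenase, was led by its membrane anchor Sdhd at 219 CPM and its iron-sulfur subunit Sdhb at 213 CPM. Complex III was led by the hinge protein Uqcrh at 484 CPM and the small subunit Uqcrq at 423 CPM. The leading genes of complexes IV and V were higher. Cox4i1, a regulatory subunit of cytochrome c oxidase, stood at 1175 CPM and Cox8a at 1124 CPM. The c-ring genes of ATP synthase, which encode the same mature protein, stood at 1124 CPM (Atp5g3), 929 CPM (Atp5g2) and 595 CPM (Atp5g1). Of the assembly factors Ndufaf8 was highest at 66.4 CPM, followed by Ndufaf4 at 46.7 CPM, so these chaperones of complex I assembly lay below every leading subunit.

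Where a subunit has a general and a tissue-restricted form, the general form carried nearly all UMIs in control Kit+ cells, except in the Cox6b pair. The lung-associated form Cox4i2 stood at 2.91 CPM and the heart and muscle form Cox6a2 at 2.10 CPM, against 452 CPM for Cox6a1. The muscle forms Cox7a1 and Cox8b stood at 0.215 and 0.0187 CPM, and Cox8c and Ndufa4l2 had 1 UMI each. No UMI of Cox7b2, another testis form, was found in these groups. Their general partners Cox7a2, Cox7b and Ndufa4 stood at 326, 314 and 747 CPM. Cox6b2, a form best known from testis, reached 96.9 CPM beside 470 CPM for Cox6b1, and Cox7a2l, a relative of Cox7a2 that joins complexes III and IV into supercomplexes, stood at 215 CPM. Many respiratory chain genes have processed pseudogenes with near-identical sequence, so the split of UMIs among copies, and among Atp5g1, Atp5g2 and Atp5g3, is uncertain.

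Within the control Kit+ library the summed level of the 98 genes differed among cell groups, and it was highest in Car1 cells. It stood at 22114 CPM in 1657 Hlf cells (interval 22038 to 22190), 21553 CPM in 94 Fcer1a cells (21254 to 21855), 25030 CPM in 3625 Elane cells (24987 to 25073) and 32768 CPM in 2151 Car1 cells (32711 to 32825). These are 2.21%, 2.16%, 2.50% and 3.28% of all UMIs. Single cells varied around them: the quartiles of the share per cell were 1.90% and 2.40% in Hlf cells, 2.29% and 2.73% in Elane cells and 2.55% and 3.60% in Car1 cells, so the middle ranges of Hlf and Car1 cells did not meet. The mitochondrial UMI share was highest in Hlf cells at 0.984%, followed by 0.914% in Elane and 0.865% in Fcer1a cells, and lowest in Car1 cells at 0.777%. This order depended on depth: among cells with 3000 to 12000 UMIs the share was 1.05% in Hlf, 1.2% in Elane, 1.06% in Car1 and 0.878% in Fcer1a cells. Nuclear UMIs per mitochondrial UMI were 2.25 in Hlf, 2.49 in Fcer1a, 2.74 in Elane and 4.22 in Car1 cells.

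**Figure D1:**
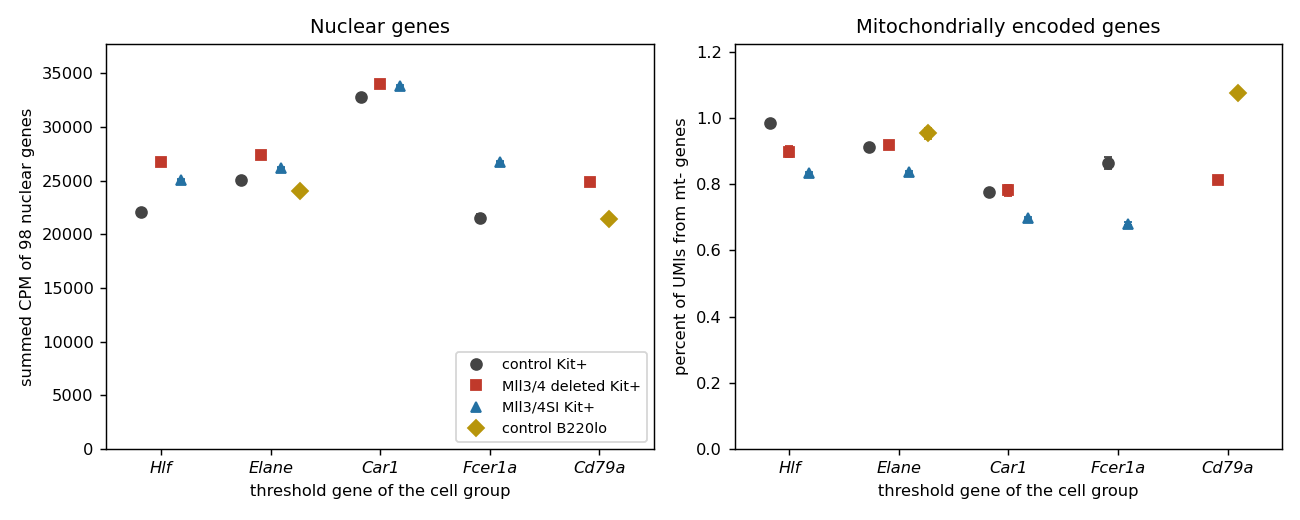
Summed level of the 98 nuclear oxidative phosphorylation genes (CPM) and share of mitochondrial UMIs (percent) by cell group and library, with 95% intervals for counting error only. Car1 cells are highest in the nuclear genes in each Kit+ library, at 32768 CPM in control, 33959 in deleted and 33841 in SI.

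Car1 cells were 1.48-fold above Hlf cells of the same library (1.48 to 1.49), a log2 ratio of 0.57. A gene was tested where the mean of both groups was 50 CPM or more, and it was called higher when at least 25% above and lower when at least 20% below, which is the same fold either way. Of 80 members tested 68 were called higher and 1 lower, where 35.2% of all 3447 genes tested were called higher and 26.1% lower. The median member had a log2 ratio of 0.59, against 0.098 for all genes tested. Complex III was 1.56-fold higher in sum, complex II 1.56-fold, complex V 1.54-fold and complexes I and IV 1.43-fold. All 4 genes of complex II and all 8 of complex III were above Hlf cells, as were 56.1% of all genes tested. This ratio was 0.36 with cells of several groups kept, 0.38 without cells that had a Mki67 UMI (Mki67 marks cycling cells) and 0.19 among cells with 3000 to 12000 UMIs.

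Single members moved far apart between these groups. Atp5g1 stood at 314 CPM in Hlf cells and 876 CPM in Car1 cells, a log2 ratio of 1.48. Of its partners in the c-ring, Atp5g3 stood at 752 and 1501 CPM and Atp5g2 at 912 and 1045 CPM, so the 3 genes of 1 mature protein differed in their ratios. Cox6b2 stood at 61.9 CPM in Hlf cells and 162 CPM in Car1 cells (log2 ratio 1.37), and Uqcr11, a small subunit of complex III, at 205 and 460 CPM (1.16). Cox7a2l was the exception, with 293 CPM in Hlf cells, 211 CPM in Car1 cells and 194 CPM in Elane cells. It was the 1 member called lower in Car1 cells (log2 ratio -0.47).

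Elane cells were 1.13-fold above Hlf cells (log2 ratio 0.18), with 20 of 79 members called higher and 1 lower, against 17.6% and 24.6% of all genes tested. At a fold of 1.5 the number higher was 1, against 8.53% of all genes. The highest were Atp5g1 (314 CPM in Hlf and 472 CPM in Elane cells), Uqcrq (277 and 414 CPM) and Cox5a (465 and 682 CPM), a matrix-side subunit of complex IV. The 1 lower member was again Cox7a2l, with a log2 ratio of -0.59. With cells of several groups kept the summed log2 ratio was 0.052, and among cells with 3000 to 12000 UMIs it was 0.074.

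In Hlf cells the nuclear genes were higher in both altered Kit+ libraries than in control. The sum stood at 22114 CPM in control, 26752 CPM in 103 deleted cells and 25083 CPM in 1985 SI cells. The quartiles of the share per cell were 1.90% and 2.40% in control, 2.32% and 2.93% in deleted and 2.14% and 2.76% in SI, so they overlapped. The deleted library was 1.21-fold above control (1.20 to 1.22; log2 ratio 0.27) and the SI library 1.13-fold (1.13 to 1.14; 0.18). Both comparisons use the same control library. With cells of several groups kept, the log2 ratios were 0.10 and 0.079. The Hlf cells left out differed by library. Those that also met the Elane threshold were 965 in control, 81 in deleted and 720 in SI. In the same order 331, 1 and 101 also met that of Car1, 24, 1 and 809 that of Fcer1a, and 3, 55 and 3 that of Cd79a.

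In the deleted library 32 of 80 members tested were called higher in Hlf cells and 0 lower, against 13.4% and 12% of all 3543 genes tested. The median member had a log2 ratio of 0.29 and the median of all genes was 0.043. All 17 genes of complex V were above control, where 56.0% of all genes were, and 9 of them were called. In complex I, 13 of 36 tested were called, in complex III 3 of 8, in complex IV 7 of 13 and in complex II 0 of 4. Atp5k, the e subunit at the dimer interface of ATP synthase, stood at 50.9 CPM in control and 102 CPM in deleted cells. This rests on 142 UMIs in the deleted cells and gave a ratio of 2.0 (1.66 to 2.39). Ndufs5, an intermembrane-space subunit of complex I, stood at 62.5 and 107 CPM, and Ndufa5, a subunit of the matrix arm, at 75.8 and 127 CPM. The lowest members were not called: Cox7a2l had a log2 ratio of -0.23, the complex I subunit Ndufa6 -0.18 and the complex II assembly factor Sdhaf4 -0.13, the last with a ratio interval of 0.701 to 1.17.

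In the SI library 8 of 80 members were called higher in Hlf cells and 0 lower, against 3.65% and 3.48% of all 3589 genes tested. The median member had a log2 ratio of 0.17 and the median of all genes was 0.050. Of the 80 members, 77 were above 0, including all 36 tested of complex I and all 4 of complex II, against 64.6% of all genes tested. Ndufs5 stood at 62.5 CPM in control and 110.0 CPM in SI cells (ratio 1.76, 1.63 to 1.90). Ndufa4, which is far more abundant, stood at 726 CPM in control, 896 CPM in deleted and 1132 CPM in SI cells (ratio of SI to control 1.56). Ndufa3, a small membrane-arm subunit of complex I, stood at 111 and 156 CPM. Complex IV, to which Ndufa4 belongs, had the highest summed log2 ratio of the complexes at 0.25, and complex II the lowest at 0.093. In the deleted library complex V was highest at 0.32 and complex II lowest at 0.17.

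Other cell types' markers also moved among the Hlf cells of the 3 libraries, and their part in the ratios was not tested. All 5 megakaryocyte markers were detected in each library, at a sum of 557 CPM in control, 190 CPM in deleted and 178 CPM in SI cells. The 10 erythroid markers summed to 490, 403 and 211 CPM, with Ermap and Hba-a1 at 0 in the deleted cells. The 12 B-lineage markers summed to 81.1, 324 and 82.8 CPM, with Rag1 at 0 in control, Ms4a1 at 0 in deleted and Ebf1, Ms4a1, Pax5, Rag1 and Vpreb3 at 0 in SI. Megakaryocyte and erythroid markers were thus lower in both altered libraries than in control, and B-lineage markers were highest in the deleted one. The 8 basophil or mast markers summed to 317, 289 and 669 CPM, with Prss34 and Tpsb2 at 0 in deleted. The 7 granulocyte markers, all detected, summed to 3434, 2624 and 4207 CPM. The 7 monocyte or dendritic markers summed to 217, 88.1 and 171 CPM, with Siglech at 0 in deleted and SI. The 5 NK or T markers summed to 333, 129 and 45.9 CPM, with Cd3e and Trac at 0 in all 3 libraries and Cd3g at 0 in control and deleted. At most 1 of the 5 reached 50 CPM in any of them, so these sums do not show NK or T cells. Median depth was 7770 UMIs per Hlf cell in control, 13349 in deleted and 10282 in SI, and among cells with 12000 to 24000 UMIs the sums were 23350, 27820 and 26495 CPM.

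Fcer1a cells could be compared between control and SI, and here the ratio to control was 1.24 (1.22 to 1.26; log2 ratio 0.31). The sum stood at 21553 CPM in 94 control cells and 26763 CPM in 1579 SI cells, with quartiles of the share per cell of 1.90% and 2.29% in control and 2.27% and 2.93% in SI. Among cells with 3000 to 12000 UMIs the log2 ratio was 0.20. Of 79 members 37 were called higher and 0 lower, against 18.1% and 15.7% of all 3504 genes tested, and the median member had a log2 ratio of 0.31 against 0.032 for all genes. Complex III had 5 of 8 genes called, complex IV 8 of 13, complex V 9 of 17 and complex I 15 of 36, while complex II had 0 of 4.

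The highest ratios in Fcer1a cells were those of Ndufs5, Atp5k and Ndufa3. Ndufs5 stood at 68.6 CPM in control and 123 CPM in SI Fcer1a cells (ratio 1.8, 1.40 to 2.35, from 63 control UMIs). Atp5k stood at 38.1 and 68.8 CPM and Ndufa3 at 106 and 181 CPM. Ndufa4 stood at 661 and 996 CPM. At the other end Cox7a2l stood at 294 CPM in control and 239 CPM in SI, a log2 ratio of -0.30, followed by Sdha, the catalytic subunit of complex II, at 182 and 173 CPM, whose interval holds a ratio of 1. Control and SI Fcer1a cells also differed in other markers, whose part was not tested. The 5 NK or T markers summed to 521 CPM in control, nearly all Nkg7 with Cd3e, Cd3g and Trac at 0, and to 42.7 CPM in SI, with Cd3e and Cd3g at 0. The 10 erythroid markers summed to 518 CPM, with Hba-a1 at 0, and to 113 CPM. The 7 stress markers summed to 226 CPM, with Atf3 and Hspa1a at 0, and to 373 CPM. The 8 basophil or mast markers summed to 3508 CPM in control, with Tpsb2 at 0 and 6 genes at 50 CPM or more, and to 3554 CPM in SI, with all detected and 4 at 50 CPM or more.

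**Figure D2:**
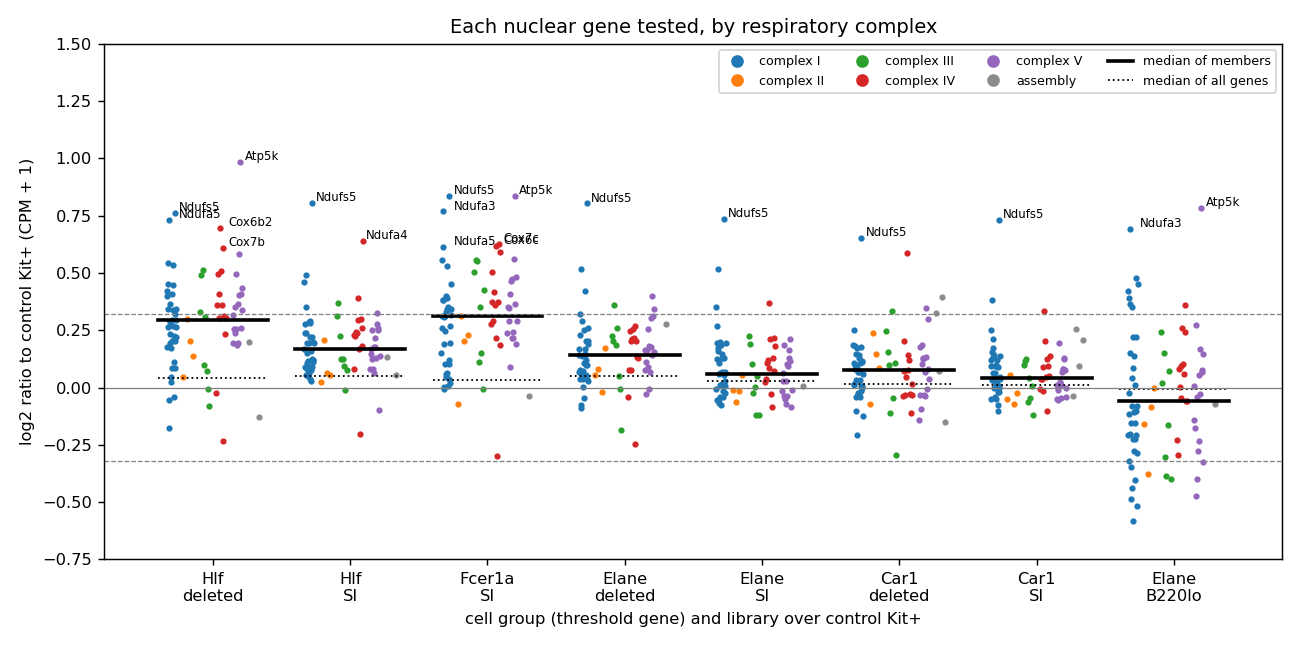
Log2 ratio to control of each member tested, 1 point per gene coloured by complex, by cell group and library (deleted, SI or control B220lo), with dashed lines at the fold of a call either way and the medians of members (solid) and of all genes tested (dotted). Above the upper line lie 32 of 80 members in deleted Hlf cells and 37 of 79 in SI Fcer1a cells, against 13.4% and 18.1% of all genes tested. Below the lower line lie 0 of them, against 12% and 15.7%. In Car1 cells 6 of 82 (deleted) and 3 of 82 (SI) lie above the upper line, against 5.09% and 2.45%.

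In Elane and Car1 cells of the Kit+ libraries the differences were smaller. In Elane cells the sum stood at 25030 CPM in control, 27377 CPM in 407 deleted cells and 26214 CPM in 2780 SI cells, ratios of 1.09 and 1.05. In Car1 cells it stood at 32768 CPM in control, 33959 CPM in 54 deleted cells and 33841 CPM in 822 SI cells, ratios of 1.04 and 1.03. The Elane log2 ratios were 0.13 and 0.067, but among cells with 3000 to 12000 UMIs they were -0.75 and -0.27. At 12000 to 24000 UMIs the Elane sums were 25689 CPM in control, 28817 in deleted and 27217 in SI, so the direction differed between these ranges. At 6000 to 12000 UMIs there were 55 deleted Elane cells, with 2.25% mitochondrial UMIs against 1.04% in control, and the part of this was not tested. The Car1 log2 ratios were 0.052 and 0.046, and the first was -0.0099 as a mean of single cells.

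Few members were called in these cells. In Elane cells 6 of 79 were called higher in the deleted library and 4 of 79 in SI, against 5.68% and 4.88% of all genes tested. In Car1 cells 6 of 82 and 3 of 82 were, against 5.09% and 2.45%. None was called lower in these 4 comparisons, against 4.04% and 2.1% of all genes in Elane cells and 4.69% and 1.45% in Car1 cells. The counts of higher members were thus near the background. Among the lowest, Uqcrq stood at 414 CPM in control, 364 CPM in deleted and 381 CPM in SI Elane cells, and at 495, 403 and 455 CPM in Car1 cells. Ndufc1, a small subunit of complex I, stood at 133 CPM in control and 178 CPM in deleted Elane cells. In Car1 cells of the deleted library Cox6b2 stood at 162 and 243 CPM, and Ndufaf4 at 64.6 and 85.4 CPM. The 12 B-lineage markers summed to 55.2 CPM in control Elane cells (Ebf1, Ms4a1 and Rag1 at 0), 201 CPM in deleted (Ms4a1 at 0) and 54.4 CPM in SI (Ms4a1, Pax5 and Rag1 at 0). The 7 monocyte or dendritic markers summed to 704 CPM in control Elane cells (Siglech at 0), 911 CPM in deleted (Cd74 and Siglech at 0) and 452 CPM in SI (Siglech at 0). The 5 NK or T markers summed to 727 CPM (Trac at 0), 675 CPM (Cd3e, Cd3g, Klrb1c and Trac at 0) and 293 CPM. Just 1 of the 5 genes, which in deleted was Nkg7, reached 50 CPM in each library, so these sums do not show NK or T cells. The 8 basophil or mast markers summed to 135, 33.6 (Cma1, Fcer1a, Prss34 and Tpsb2 at 0) and 376 CPM, and the 5 megakaryocyte markers to 54.8, 3.77 (Gp1bb at 0) and 45.8 CPM. Monocyte or dendritic markers were thus highest in deleted, and basophil or mast markers in SI Elane cells. In Car1 cells the 7 granulocyte markers summed to 285 CPM in control, 62.7 CPM in deleted (Cebpe and Gfi1 at 0) and 583 CPM in SI. The basophil or mast markers summed to 97.8 (Tpsb2 at 0), 68.1 (Cma1, Fcer1a, Mcpt8, Ms4a2, Prss34 and Tpsb2 at 0) and 147 CPM (Prss34 at 0) in the same order, and the megakaryocyte markers to 49.2, 8.17 (Gp1bb and Vwf at 0) and 34.8 CPM. The NK or T markers summed to 84.5 (Cd3e, Cd3g and Trac at 0), 49.95 (Cd3e, Cd3g, Klrb1c and Trac at 0) and 15.9 CPM (Cd3g and Trac at 0). The deleted value was all Nkg7. Globin genes held 39.4 CPM in control, 3.63 CPM in deleted and 398 CPM in SI Car1 cells, and immunoglobulin genes 2.12, 98.1 and 1.59 CPM. Globin was thus highest in SI and immunoglobulin in deleted Car1 cells. The part of all these values in the ratios was not tested.

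Some members were called higher in each cell group compared with control Kit+, 2 of 79 in the deleted library and 3 of 78 in SI. The share of all genes called higher in each group was not counted, so these repeats are only a description. Ndufs5 was called higher in all 3 comparisons of the deleted library and all 4 of the SI library. It stood at 78.3 CPM in control, 138 CPM in deleted and 131 CPM in SI Elane cells, and at 91.5, 144 and 153 CPM in Car1 cells. Thus the deleted and SI levels lay near each other and apart from control in Hlf, Elane and Car1 cells. Atp5k was past the fold in all 3 deleted comparisons, with 64.2 CPM in control, 85 in deleted and 70.2 in SI Elane cells. Ndufa3 was past it in all 4 SI comparisons, with 125 CPM in control, 156 in deleted and 179 in SI Elane cells, and so was Cox6b2, with 59.5, 69.0 and 77 CPM.

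Many members shared a direction without passing the fold. In the deleted library 47 of 79 members tested in all 3 cell groups were above control in each, against 30.6% of the 2591 genes so tested. Below control in each were 3 members, Cox4i1, Ndufa6 and Uqcrq, against 15.6% of those genes. In the SI library 46 of 78 were above control in all 4 groups and 1 was below, Cox7a2l, against 23.4% and 7.67% of 2543 genes. It stood at 194 CPM in control and 183 CPM in SI Elane cells, and at 211 and 197 CPM in Car1 cells. All comparisons of 1 altered library with control rest on the same pair of libraries, so these counts are no independent repeats.

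**Figure D3:**
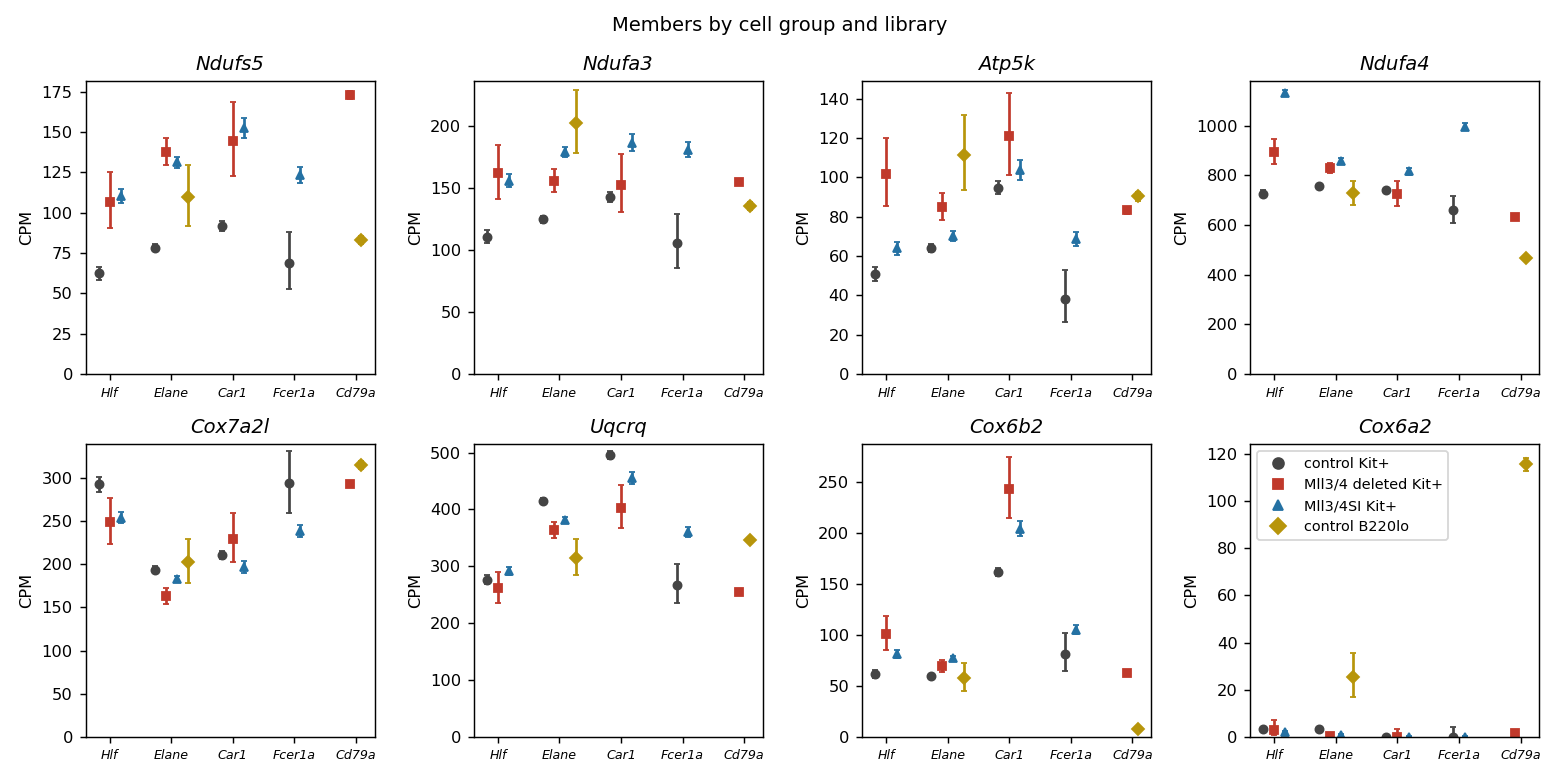
Level (CPM) of 8 members in each library and cell group with at least 50 cells, with 95% intervals for counting error only. Ndufs5 is lowest in the control Kit+ library within Hlf, Elane, Car1 and Fcer1a cells, and Cox6b2 stands at 62.6 CPM in deleted and 7.21 CPM in control B220lo Cd79a cells.

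The control B220lo library held 69 Elane cells, which were set beside those of control Kit+. These libraries differ in the sorted antigen, so sort and library cannot be told apart. Their sum stood at 24009 CPM against 25030 CPM in control Kit+ (ratio 0.959, 0.948 to 0.970; log2 ratio -0.060). With mitochondrial, ribosomal protein, immunoglobulin, globin and threshold genes left out of the total it was -0.15. Of 79 members 9 were called higher and 13 lower, against 17.7% and 17.7% of all genes tested. Atp5k stood at 64.2 CPM in control Kit+ and 111 CPM in control B220lo, Ndufa3 at 125 and 202 CPM, and Ndufs5 at 78.3 and 110 CPM. These 3 members were thus higher in the other control library too, and for Atp5k and Ndufa3 it lay above both altered libraries. Cox6b2 stood at 59.5 CPM in control Kit+ and 57.7 CPM in control B220lo. The lowest were the complex I genes Ndufb6 (192 and 127 CPM), Ndufv1 (147 and 102 CPM), the NADH-binding subunit, and Ndufab1 (253 and 180 CPM), the mitochondrial acyl carrier protein. B-lineage markers summed to 55.2 CPM, with Ebf1, Ms4a1 and Rag1 at 0, in control Kit+ Elane cells and to 313 CPM, with all 12 detected, in those of B220lo. The monocyte or dendritic markers summed to 704 CPM (Siglech at 0) and 1150 CPM. The NK or T list went the other way, at 727 CPM (Trac at 0) and 179 CPM (Cd3e, Cd3g and Klrb1c at 0). In both libraries 1 of its genes reached 50 CPM, so these sums do not show NK or T cells. Basophil or mast markers summed to 135 CPM and 218 CPM (Cma1, Prss34 and Tpsb2 at 0). Cytosolic ribosomal protein genes summed to 227979 CPM in control Kit+ and 182878 CPM in B220lo Elane cells, and the part of these differences was not tested.

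Cd79a cells were compared between the deleted Kit+ library and the control B220lo library, which differ in the sorted antigen as well as in genotype, so sort and genotype cannot be told apart. The sum stood at 24861 CPM in 13499 deleted cells and 21424 CPM in 11592 control B220lo cells, a ratio of 1.16 and a log2 ratio of 0.21 (0.212 to 0.218). Quartiles of the share per cell were 2.06% and 2.71% in deleted and 1.61% and 2.32% in B220lo. Of 81 members 26 were called higher and 4 lower, against 25.9% and 29.3% of all 3657 genes tested. At a fold of 1.5, however, 4 members were higher (4.94% of those tested) against 14.2% of all genes, so the members' share lay above the background at the smaller fold and below it at the larger. The log2 ratio was 0.33 without cells that had a Mki67 UMI and 0.14 among cells with 12000 to 24000 UMIs. Plasma cell markers summed to 98.2 CPM in deleted and 1890 CPM in B220lo and erythroid markers to 151 and 328 CPM, with every gene of both lists detected in both. The 12 stem and progenitor markers summed to 754 CPM in deleted and 77 CPM in B220lo, with Hlf, which the rule for these cells leaves out, at 0 in both. This list also holds the gene of Kit, the antigen by which the deleted library was sorted and B220lo was not, so the sort may enter this difference. The part of these lists was not tested.

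Complex V had the highest summed log2 ratio in Cd79a cells at 0.32, with 9 of 17 genes called higher. Among the members tested Ndufs5 had the highest ratio, at 173 CPM in deleted and 83.1 CPM in B220lo cells. It was followed by Ndufa12, a matrix-arm subunit of complex I, at 259 and 143 CPM, and Atp5o, the stalk subunit that holds the ATP synthase head, at 514 and 307 CPM. The lower members were Uqcrq (255 and 346 CPM), Ndufb1-ps (114 and 199 CPM), Sdhaf2 (38.0 and 92.5 CPM), a factor that adds flavin to complex II, and Cox6a2. Ndufb1-ps is annotated as a noncoding RNA at a bidirectional promoter, so its UMIs may not stand for a subunit. Cox6b2 was under the 50 CPM mean needed for a call, with 62.6 CPM in deleted and 7.21 CPM in B220lo cells.

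Cox6a2 stood at 1.58 CPM in deleted and 116 CPM in B220lo Cd79a cells, a log2 ratio of -5.50, and the log2 ratio was -5.87 in cells with no contig. Its UMIs were unevenly spread. The 871 B220lo Cd79a cells with a UMI of Siglech, a surface receptor of plasmacytoid dendritic cells, held 761 CPM of Cox6a2, and the other 10721 held 33.4 CPM. A Siglech UMI was found in 0 of 13499 deleted Cd79a cells, which allows up to 0.0222% of cells with a captured Siglech UMI, for counting error only, and sets no limit on cells that express the gene. The monocyte and dendritic list summed to 3649 CPM with all 7 genes detected in B220lo and to 21.4 CPM in deleted. Siglech itself made up 100 CPM of the B220lo sum. The list also holds Cd74, which B cells express too, so its sum is not a measure of dendritic cells. In B220lo Elane cells Cox6a2 stood at 25.2 CPM, and in no group of the Kit+ libraries with 50 cells or more did it exceed 3.26 CPM.

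Immunoglobulin contigs, the receptor sequences assembled from each cell's reads, split the Cd79a cells by the chains found. A chain without a contig may have gone uncaptured, so the states are not read as stages of rearrangement. Cells with no contig stood at 24906 CPM in 10252 deleted and 21893 CPM in 2912 B220lo cells. Cells with a heavy chain only stood at 24718 CPM in 3214 deleted and 24549 CPM in 1597 B220lo cells. Within the B220lo library, 6531 cells with heavy and light chains stood at 20363 CPM and 552 with a light chain only at 19448 CPM, so heavy-only cells were the highest of its 4 states. Other values moved with these states, and their part was not tested. Globin genes held 1165 CPM with no contig, 1536 CPM with a heavy chain only, 267 CPM with both chains and 1163 CPM with a light chain only. The 10 erythroid markers summed to 417, 600 (Aqp1 and Epor at 0), 195 and 463 CPM in the same order, and a Mki67 UMI was found in 35.6%, 45.7%, 27.5% and 21.7% of cells. All 3 values were thus highest in the heavy-only cells. Other values were lowest there. Monocyte or dendritic markers summed to 2178, 1265, 4982 and 5046 CPM in the same order, and plasma cell markers to 298, 108, 3140 and 2501 CPM. Immunoglobulin genes held 8135, 5330, 45789 and 41727 CPM. In the deleted library the 2 states with 50 cells or more, no contig and heavy only, differed by less, with 20 cells of both chains and 13 of light chain only not compared.

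**Figure D4:**
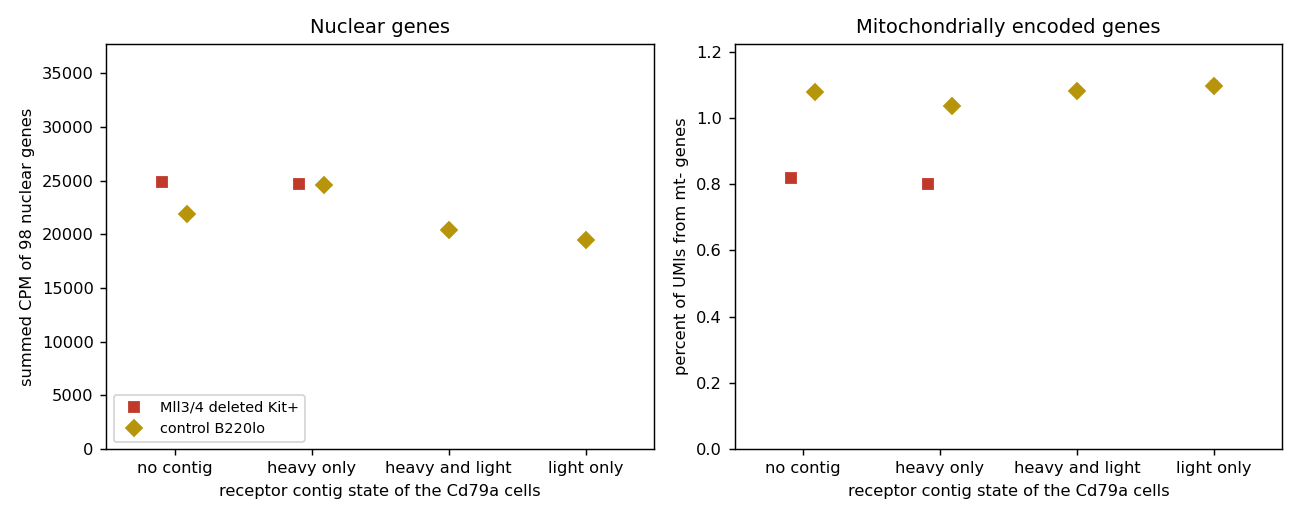
Summed level of the 98 genes (CPM) and mitochondrial UMI share (percent) in Cd79a cells by contig state and library, with 95% intervals for counting error only. In heavy-only cells the libraries lie at 24718 and 24549 CPM, while the mitochondrial shares lie apart at 0.801% and 1.04%.

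With no contig the deleted library was 1.14-fold above B220lo (log2 ratio 0.19), with 22 members of 81 called higher and 4 lower, against 22.1% and 31.3% of all genes, and at a fold of 1.5 with 4 higher against 12.5% of all genes. Other marker lists differed in this state too. The monocyte or dendritic list, which holds Cd74, summed to 13.2 CPM (Siglech at 0) in deleted and 2178 CPM in B220lo. The stem and progenitor list, which holds the gene of the sorted antigen Kit, summed to 753 and 92.9 CPM (Hlf at 0 in both). The erythroid list summed to 158 and 417 CPM and globin genes to 201 and 1165 CPM. In heavy-only cells the monocyte or dendritic list summed to 12.7 CPM (Siglech at 0) and 1265 CPM, the erythroid list to 132 and 600 CPM (Aqp1 and Epor at 0 in B220lo) and globin genes to 2.67 and 1536 CPM. The stem and progenitor list there summed to 759 CPM in deleted, with 10 of 12 genes detected, and to 18.3 CPM in B220lo, with 9 detected. The part of these values in either ratio was not tested. The log2 ratio with no contig was 0.31 without Mki67 cells, 0.29 as a mean of single cells, 0.12 with raised thresholds and 0.048 among cells with 12000 to 24000 UMIs. In heavy-only cells the ratio was 1.01, a log2 ratio of 0.0099 (0.0033 to 0.017), with 9 of 80 members higher and 9 lower, against 20.7% and 30.5%. Its sign was not stable, at -0.032 with raised thresholds, -0.021 with at most 2% mitochondrial UMIs, -0.099 among cells with 12000 to 24000 UMIs and 0.24 without Mki67 cells. The median of all genes in heavy-only cells was -0.099, and minus that median the log2 ratio was 0.11, with 15 members higher and 4 lower against 25.1% and 24.3% of all genes under the same centring.

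A level sum did not mean level members. In heavy-only cells Ndufs5 stood at 171 CPM in deleted and 89.7 CPM in B220lo, Ndufa12 at 256 and 168 CPM, and Ndufs4, an accessory subunit of complex I, at 204 and 149 CPM. Against these, Uqcrq stood at 247 and 428 CPM, Ndufb1-ps at 109 and 218 CPM and Sdhaf2 at 37.7 and 92.8 CPM. Complexes I and V had summed log2 ratios of 0.070 and 0.079, complexes III and IV -0.075 and -0.097. By detection of Mki67, B220lo heavy-only cells with a Mki67 UMI stood at 26085 CPM and those without at 19814 CPM, and in the deleted library the values were 25364 and 23367 CPM. A Mki67 UMI was found in 45.7% of B220lo and 51.1% of deleted heavy-only cells, at median depths of 3342 and 6864 UMIs. Finding a Mki67 UMI depends on depth, and the level of B220lo heavy-only cells rose from 19068 CPM in those with 1000 to 3000 UMIs to 31273 CPM in those with 24000 or more, so cycling and depth cannot be told apart in this split.

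The mitochondrial UMI share, which came wholly from the 13 protein-coding mt- genes, did not follow the nuclear genes. In Hlf cells it stood at 0.984% in control, 0.899% in deleted and 0.835% in SI. In Elane cells it stood at 0.914%, 0.919% and 0.836%, in Car1 cells at 0.777%, 0.782% and 0.698%, and in Fcer1a cells at 0.865% in control and 0.681% in SI. The SI library was thus lowest in each group when cells of all depths were summed. Among cells with 3000 to 12000 UMIs this turned in Elane cells, with 1.48% in SI and 1.2% in control, and the nuclear log2 ratio there was -0.27. In that range SI was below control in Hlf (0.941% and 1.05%), Car1 (0.965% and 1.06%) and Fcer1a cells (0.753% and 0.878%). The log2 ratios of the share for SI over control were -0.24 in Hlf, -0.13 in Elane, -0.15 in Car1 and -0.34 in Fcer1a cells. Of 11 mt- genes tested, 0 were above control in SI Hlf and Car1 cells and 1 in Elane and Fcer1a cells, where 64.6%, 54.6%, 58.9% and 54.1% of all genes tested were above control in the same order. In Cd79a cells the share was 0.814% in deleted and 1.08% in B220lo. Of the 11 genes 0 were above B220lo in deleted, where 49.0% of all genes tested were. Of these 11, 7 were called lower, against 29.3% of all genes tested. Nuclear UMIs per mitochondrial UMI in Hlf cells were 2.25 in control, 2.97 in deleted and 3.0 in SI, and in Cd79a cells 3.05 in deleted and 1.99 in B220lo.

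Across single cells with at least 3000 UMIs, cells with a larger share of UMIs from the nuclear genes had a lower mitochondrial share in most groups. Spearman's rho was -0.35 over 1612 control Hlf cells, -0.38 over 3574 control Elane cells, -0.37 over 2134 control Car1 cells and -0.50 over 2757 SI Elane cells, and -0.11 over 12146 deleted Cd79a cells. Among the groups of 100 cells or fewer it was -0.47 over 100 deleted Hlf cells, -0.012 over 94 control Fcer1a cells, -0.084 over 69 control B220lo Elane cells and -0.25 over 53 deleted Car1 cells. Both shares have the same total as denominator and both move with depth, so these values are descriptions.

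The level went with depth in most groups. In control Hlf cells the sum was 19489 CPM among cells of 3000 to 6000 UMIs, 22009 CPM among those of 6000 to 12000 and 23350 CPM among those of 12000 to 24000, and in SI Hlf cells it was 18596, 23942 and 26495 CPM. SI was therefore below control in the shallowest of these ranges and above it in the others. Elane cells held a shallow tail of another kind. At 3000 to 6000 UMIs 195 control cells stood at 10654 CPM with 2.55% mitochondrial UMIs, and 55 deleted cells of 6000 to 12000 UMIs stood at 13774 CPM with 2.25%. At 12000 to 24000 UMIs, where 2364 of the 3625 control Elane cells lay, the sums were 25689 CPM in control, 28817 in deleted, 27217 in SI and 23574 in control B220lo.

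**Figure D5:**
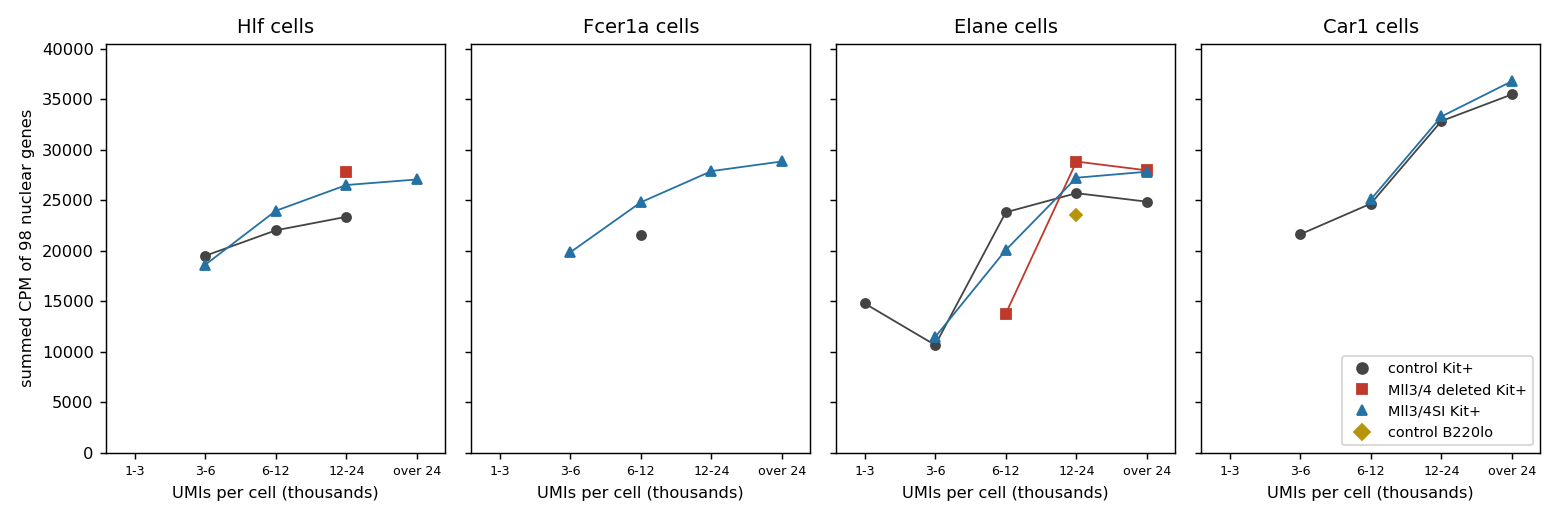
Summed level of the 98 genes (CPM) against the range of UMIs per cell, by cell group and library, for ranges with at least 50 cells. Levels are higher at greater depth in most groups, and Elane cells under 12000 UMIs fall as low as 10654 CPM.

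Other metabolic genes were set beside the members. In Hlf cells of the deleted library, genes of the citric acid cycle, of which 15 of 16 were tested, had a summed log2 ratio of 0.27, glycolysis genes 0.29 and genes of the mitochondrial ribosome 0.19, so the respiratory chain was not alone in being higher. The carrier list holds cytochrome c and the adenine nucleotide carriers among others. It also holds Cyc1, a subunit of complex III that the name rule leaves out. This list had 0.48 with 6 of 6 tested genes called higher, against 13.4% of all genes. In SI Hlf cells the same 4 lists had 0.13, 0.18, 0.11 and 0.061. In SI Fcer1a cells glycolysis was highest at 0.43, with 8 of 11 genes called higher and 1 lower, against 18.1% and 15.7% of all genes. In deleted Cd79a cells glycolysis had 0.78 with 7 of 9 called higher, against 25.9% of all genes, where the members' sum had 0.21. Cytosolic ribosomal proteins had -0.0033 in deleted Hlf cells and 0.32 in deleted Cd79a cells.

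Between Car1 and Hlf cells of the control Kit+ library the lists parted. The mitochondrial ribosome had a summed log2 ratio of 0.69 with 57 of 68 genes called higher, the citric acid cycle 0.60 with 12 of 16 and the carriers 0.84 with 6 of 7. Glycolysis had -0.073, with 3 of 11 higher and 3 lower. In this comparison 35.2% of all genes were called higher and 26.1% lower. Between Elane and Hlf cells of the same library glycolysis had 0.70, with 7 of 11 genes called higher and 1 lower, against 17.6% and 24.6% of all genes, where the members' sum had 0.18.

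Cells just inside and just outside the thresholds differed by library and threshold gene, and the values follow as a description. In control Kit+, 862 cells with exactly 1 Hlf UMI stood at 22637 CPM and 2834 cells that met no threshold at 23175 CPM. Cells with 10 to 14 Elane UMIs stood at 22198 CPM and those with 5 to 9 at 23268 CPM. Cells with 10 to 14 Car1 UMIs stood at 22938 CPM and those with 5 to 9 at 23048 CPM, well below the 32768 CPM of all Car1 cells. In the deleted library, by contrast, 59 cells with exactly 1 Hlf UMI stood at 27084 CPM with 0.893% mitochondrial UMIs, and 544 cells that met no threshold at 16586 CPM with 1.29%. In SI the Hlf cells of this kind stood at 25578 CPM and the cells that met no threshold at 25700 CPM. In SI, cells with 3 to 4 Fcer1a UMIs stood at 26320 CPM and those with 1 to 2 at 26138 CPM. In the deleted library 315 cells with 3 to 4 Cd79a UMIs stood at 8426 CPM with 1.76% mitochondrial UMIs, and 356 cells with 1 to 2 at 12076 CPM with 1.52%, far from the rest of the Cd79a cells. In B220lo the matching values were 13351 CPM with 1.52% and 16131 CPM with 1.32%.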

How the data were processed

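Per the labels, single-cell libraries were made with a 10x Genomics 5′ version 2 kit, and Cell Ranger 7.1.0 and the build mm10 are named in the submitters' processing notes. The deposited matrices hold raw UMI counts per gene and barcode, not normalized, and the deposited contig tables list immunoglobulin chains per barcode. Each of the 4 libraries was mapped to 1 group by its title.

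Barcodes were kept with at least 1000 UMIs, 500 genes and at most 10% mitochondrial UMIs. No doublet caller was run. Cells that met more than 1 of the 5 UMI thresholds were left out instead. UMIs were summed per cell group and library and divided by their total (CPM). Sums carry exact Poisson intervals, ratios conditional binomial intervals and mitochondrial shares Clopper-Pearson intervals, all at 95% and for counting error only. Log2 ratios of single genes carried a pseudocount of 1 CPM, which understates changes of low genes. A gene was tested where the mean CPM of both libraries was at least 50 and called when at least 25% above or 20% below, and the same rule over all genes gave the background. With 1 library per group no replicate test could be fitted. The ratio step was tested on simulated data. Named members were the 3 largest and 3 smallest log2 ratios of each comparison, the 2 highest members of each complex in control Kit+ cells and the members of isoform families, and all others were named after their values were seen. One symbol of the glycolysis list, Aldoa, occurs on 2 features, and Azu1 of the granulocyte list was not found among the symbols. The B-lineage marker sums of Car1 cells and the stem and progenitor marker sums of Elane cells are not reported here. The members, lists and tests were chosen with earlier results of these data known. Promoters came from the RefSeq table of GRCm38.p6 and were searched in 250 bases. Alternatives varied the cells, thresholds, depth, total, averaging, members, cycling cells, centring, fold, low-value filter and pseudocount. Python 3.11.15, numpy 2.4.6, pandas 2.3.3, scipy 1.17.1 and matplotlib 3.10.9 were used.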

Additional observations from a re-analysis of the deposited data

How the results depend on the processing

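The cause of the differences below was not tested. With every cell meeting a threshold kept the log2 ratios were 0.10 (deleted Hlf), 0.079 (SI Hlf), 0.083 (deleted Elane), 0.052 (SI Elane), 0.023 (deleted Car1), 0.064 (SI Car1), 0.22 (SI Fcer1a), -0.10 (B220lo Elane), 0.052 (Elane over Hlf), 0.36 (Car1 over Hlf), -0.087 (Fcer1a over Hlf). With thresholds raised the log2 ratios were 0.20 (SI Hlf), 0.18 (Cd79a), 0.12 (no contig), -0.032 (heavy only), 0.21 (Elane over Hlf), 0.63 (Car1 over Hlf). With thresholds lowered the log2 ratios were 0.17 (SI Hlf), 0.14 (deleted Elane), 0.022 (deleted Car1), 0.034 (SI Car1), 0.26 (SI Fcer1a), 0.24 (Cd79a), 0.24 (no contig), 0.026 (heavy only), -0.11 (B220lo Elane), 0.17 (Elane over Hlf), 0.55 (Car1 over Hlf), -0.00054 (Fcer1a over Hlf). Among cells with 3000 to 12000 UMIs the log2 ratios were 0.12 (SI Hlf), -0.75 (deleted Elane), -0.27 (SI Elane), 0.019 (SI Car1), 0.20 (SI Fcer1a), 0.26 (Cd79a), 0.23 (no contig), 0.15 (heavy only), 0.074 (Elane over Hlf), 0.19 (Car1 over Hlf). With mitochondrial, ribosomal protein, immunoglobulin, globin and threshold genes out of the total the log2 ratios were 0.16 (SI Hlf), 0.10 (deleted Elane), 0.032 (SI Elane), 0.038 (SI Car1), 0.26 (Cd79a), 0.27 (no contig), 0.061 (heavy only), -0.15 (B220lo Elane), 0.16 (Elane over Hlf), 0.60 (Car1 over Hlf). As means of single cells the log2 ratios were 0.23 (deleted Hlf), 0.16 (SI Hlf), 0.074 (deleted Elane), 0.020 (SI Elane), -0.0099 (deleted Car1), 0.038 (SI Car1), 0.28 (SI Fcer1a), 0.28 (Cd79a), 0.29 (no contig), 0.15 (heavy only), 0.51 (Car1 over Hlf), -0.016 (Fcer1a over Hlf). Without assembly factors the log2 ratio was 0.22 (Cd79a). Without Mki67 cells the log2 ratios were 0.061 (SI Car1), 0.33 (Cd79a), 0.31 (no contig), 0.24 (heavy only), 0.20 (Elane over Hlf), 0.38 (Car1 over Hlf). Among cells with 12000 to 24000 UMIs the log2 ratios were 0.25 (deleted Hlf), 0.17 (deleted Elane), 0.083 (SI Elane), 0.020 (SI Car1), 0.14 (Cd79a), 0.048 (no contig), -0.099 (heavy only), -0.12 (B220lo Elane), 0.14 (Elane over Hlf), 0.49 (Car1 over Hlf). At no more than 2% mitochondrial UMIs the log2 ratios were 0.16 (deleted Elane), 0.083 (SI Elane), 0.20 (Cd79a), 0.16 (no contig), -0.021 (heavy only), 0.19 (Elane over Hlf). Minus the median gene the log2 ratios were 0.23 (deleted Hlf), 0.13 (SI Hlf), 0.080 (deleted Elane), 0.037 (SI Elane), 0.036 (deleted Car1), 0.034 (SI Car1), 0.28 (SI Fcer1a), 0.23 (Cd79a), 0.25 (no contig), 0.11 (heavy only). In the counts of members that follow, the share of all genes tested that was called under the same setting stands in the parentheses. At a fold of 1.5 the number of higher members was 5 (deleted Hlf, 2%), 2 (SI Hlf, 1.09%), 1 (deleted Elane, 0.668%), 1 (SI Elane, 1.05%), 2 (deleted Car1, 0.394%), 1 (SI Car1, 0.968%), 7 (SI Fcer1a, 5.19%), 4 (Cd79a, 14.2%), 4 (no contig, 12.5%), 2 (heavy only, 12.9%), 2 (B220lo Elane, 6.33%), 1 (Elane over Hlf, 8.53%), 41 (Car1 over Hlf, 18.9%). Minus the median gene the number of higher members was 5 (SI Hlf, 2.42%), 15 (heavy only, 25.1%). With a pseudocount of 10 CPM the number of higher members was 3 (deleted Car1, 3.63%). With no filter on low values the number of lower members was 1 (deleted Hlf, 25.8%), 1 (SI Hlf, 9.74%), 2 (deleted Elane, 11.2%), 2 (SI Elane, 4.28%), 1 (SI Fcer1a, 21.1%), 21 (B220lo Elane, 21%), 3 (Elane over Hlf, 30.6%), 4 (Car1 over Hlf, 35.8%). Minus the median gene the number of lower members was 1 (SI Fcer1a, 17.5%), 4 (heavy only, 24.3%). At a fold of 1.5 the number of lower members was 3 (heavy only, 17.2%), 0 (B220lo Elane, 4.32%), 0 (Car1 over Hlf, 17%). At a mean of 20 CPM or more the number of lower members was 2 (Elane over Hlf, 29.2%). Among cells with 3000 to 12000 UMIs the mitochondrial share was 1.05% (Hlf control), 0.941% (Hlf SI), 1.2% (Elane control), 2.36% (Elane deleted), 1.48% (Elane SI), 1.06% (Car1 control), 0.965% (Car1 SI), 0.753% (Fcer1a SI), 0.839% (Cd79a deleted), 1.18% (Cd79a B220lo). Over all alternatives the sum moved in 88 values, kept within the counting interval in 56 and changed sign in 6, namely the Elane ratios among shallow cells, deleted Car1 as a mean of single cells, and heavy only in 3 settings. Of single named members 93 values moved and 285 did not. Ndufs4 in Car1 over Hlf cells had a log2 ratio of 0.023, below the 0.098 of the median gene, so its sign turned minus that median. The 12000 to 24000 UMI range, the 2% limit and the alternatives of single members were added after the data were seen. No paired analysis was possible because each group was 1 library. Small groups limit 4 sets of values: deleted Car1 (54 cells), B220lo Elane (69), control Fcer1a (94) and deleted Hlf (103).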
